A study of Mus musculus with 6 samples.

Results

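The extracellular matrix genes described here are 56 genes for glycoproteins, proteoglycans and crosslinking enzymes of the matrix, with no collagens among them. They were taken by symbol from a fixed list, by matching the NCBI gene numbers of the count tables to mouse symbols. All 56 were found among the 18305 genes of the tables, and all 56 passed the filter on low counts that left 14581 genes for testing. By role they fall into 15 genes of elastic fibres and microfibrils, 3 lysyl oxidases, 10 genes of basement membranes, 10 proteoglycans and 18 matricellular and adhesive genes.

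RNA sequencing was done on cultured cells of KM mice, in 3 groups of 2 libraries. MEF are embryonic fibroblasts prepared at 12.5 or 13.5 days post coitum and used at passages 3 to 5. CiLC are fibroblasts of the same kind and passages that were seeded and, after 24 h, exposed to small molecules that the labels do not name. LC are cells prepared from testis and labelled as Leydig cells, the androgen-making cells between the tubules, at passages 0 to 1. The study asks how close CiLC come to LC. The labels name no transgene. Source and passage go with the group in both comparisons that involve LC, so what they contribute cannot be told apart. Whether the pair of libraries in a group stems from different animals or dishes is not stated in the labels. The p-values therefore measure only how far these libraries spread, and that spread may be technical.

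The matrix outside cells is a mixture of fibres, sheets and soluble organisers. Elastic fibres are a core of crosslinked elastin on a scaffold of fibrillin microfibrils, which also store latent TGF-beta. Basement membranes are sheets of laminin and collagen IV linked by nidogens and perlecan, and in the testis they line the seminiferous tubules and the vessels. Small leucine-rich proteoglycans coat collagen fibrils and set their width and spacing, large hyaluronan-binding proteoglycans fill space, and matricellular proteins such as thrombospondins and tenascins change how cells adhere rather than bearing load. Fibroblasts in culture are known to make much fibronectin and other matrix of healing wounds, whereas Leydig cells sit in a loose matrix next to vessels and peritubular cells.

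Libraries held 18.4 to 18.9 M estimated reads, with 16441 to 16631 genes above 0. Of 8 Leydig cell markers, 4 were above 0 in every library, and their summed level was 7.55 to 9.42 CPM (read counts scaled to a fixed library size) in MEF, 144 to 148 in CiLC and 1081 to 1109 in LC. In LC the defining markers Cyp17a1, Lhcgr and Hsd3b6 were at or near 0 and Insl3 was at 6.03 and 7.06 CPM, so the label rests on Star, Cyp11a1, Nr5a1 and Hsd3b1. The summed level of 7 fibroblast markers was 28414 to 29333 CPM in MEF, 29924 to 30164 in CiLC and 27042 to 27823 in LC. Within that list the markers differed. By the calls described below, 5 were higher and 2 lower in CiLC against MEF (71.4% and 28.6%, beside 26.1% and 25.5% of all genes tested). In LC against MEF 3 were higher and 4 lower (42.9% and 57.1%, beside 35.7% and 35%). Col1a1 and Col3a1 had the highest means over all 6 libraries, though Col1a2 lay above Col3a1 in MEF and above Col1a1 in CiLC, while Thy1, a fibroblast surface protein, was at 5.57 and 5.89 CPM in LC against 395 and 396 in MEF. Markers of other cells also moved with the groups. All 10 macrophage markers, among them Csf1r and Cd68, were above 0 everywhere and summed to 5121 to 5160 CPM in MEF, 3433 to 3459 in CiLC and 1231 to 1250 in LC. All 6 smooth muscle and peritubular myoid markers, among them Acta2 and Tagln, summed to 1571 to 1649 CPM in MEF, 144 to 147 in CiLC and 954 to 968 in LC. Of 6 Sertoli markers, among them Wt1 and Sox9, 3 were above 0 in every library, with sums of 13.9 to 14.9 CPM in MEF, 26.9 to 30.8 in CiLC and 186 to 188 in LC. Of 6 endothelial markers, among them Cdh5 and Kdr, 5 were above 0 in every library, with sums of 24.2 to 24.8 CPM in MEF, 9.63 to 9.67 in CiLC and 69.2 to 77.5 in LC. Germ cell markers, among them Zbtb16 and Ddx4, reached at most 29.9 CPM, epithelial markers, among them Cdh1 and Krt18, at most 28.1 CPM, and chondrocyte and osteoblast markers, among them Runx2 and Sox9, at most 82.1 CPM in a library. The part of these cell types in the results below was not tested. In such bulk cultures, fewer cells of a type and less RNA per cell cannot be told apart.

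The matrix genes took 6.99% and 6.83% of all reads in MEF, 4.36% and 4.24% in CiLC and 3.69% and 3.91% in LC. Fibronectin alone accounted for 1.63% and 1.64% of reads in MEF, 0.541% and 0.509% in CiLC and 0.487% and 0.556% in LC. On the scaled CPM the members summed to 68322 and 67333 in MEF, 40935 and 39738 in CiLC and 39990 and 42694 in LC. CiLC and LC thus lay below MEF and overlapped each other. The matricellular and adhesive class carried most of that gap, at 41169 and 40227 CPM in MEF, 18633 and 17907 in CiLC and 15320 and 16474 in LC. Elastic fibre genes summed to 8205 and 8253 CPM in MEF, 5814 and 5704 in CiLC and 4792 and 5092 in LC. Basement membrane genes summed to 4642 and 4761 CPM in MEF, 4723 and 4597 in CiLC and 7270 and 8116 in LC, so MEF and CiLC overlapped and LC lay above both. Proteoglycan genes differed little in sum, at 9249 and 9344 CPM in MEF, 8275 and 8154 in CiLC and 8790 and 9109 in LC, although single members moved far.

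**Figure D1:**
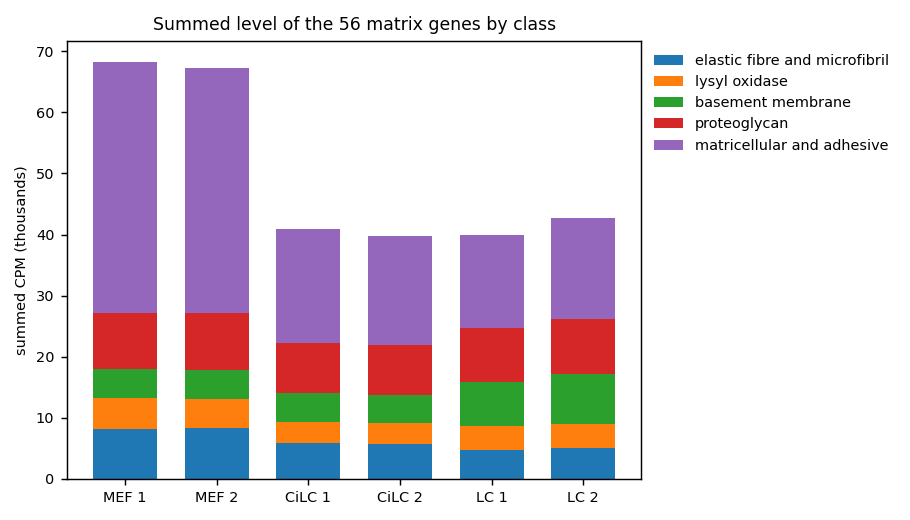
Stacked bars, 1 per library, of the summed CPM of the members divided by class. The bars of the MEF libraries reach 68322 and 67333 CPM and the other 4 between 39738 and 42694, the matricellular and adhesive part shrinks most, and the basement membrane part is largest in both LC libraries.

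Per length of exon, which allows levels of different genes to be set beside each other, biglycan (Bgn) led in every library, at 2683 and 2802 CPM per kb in MEF, 1455 and 1455 in CiLC and 2845 and 2998 in LC. In MEF it was followed by Fn1 (1880 and 1908 CPM per kb) and Thbs1 (1854 and 1749). In CiLC the next were Sparc (1445 and 1406 CPM per kb, close to Bgn) and Thbs1 (688 and 664), with Dcn at 650.1 and 670.1 overlapping the latter. In LC the next were Sparc (2402 and 2484 CPM per kb) and Fn1 (623 and 716), with Dcn at 607 and 553 just below.

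In the comparison of CiLC with MEF, treated against untreated fibroblasts, 21 of 56 members were called higher and 28 lower at an adjusted p of 0.05, and 7 were not called. That is 37.5% and 50% of the members, beside 26.1% and 25.5% of all genes tested. Signed log2 fold changes are those of the first group named minus the second, and against MEF unless LC is named. At least 2-fold higher were 7 members (12.5%, against 6.23% of all genes), namely Efemp1, Nid2, Lum, Dcn, Vcan, Tnxb and Edil3. At least 2-fold lower were 13 (23.2%, against 5.98%), namely Eln, Fbln2, Fbln5, Mfap4, Mfap5, Ltbp1, Fn1, Tnc, Thbs1, Smoc1, Matn4, Vtn and Mgp. The 7 genes not called were Fbn1, Ltbp3, Emilin1, Lama4, Acan, Thbs2 and Sparc.

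In the comparison of LC with MEF, 20 members were higher and 33 lower (35.7% and 58.9% of the members, against 35.7% and 35% of all genes), and Ltbp1, Ltbp3 and Bgn were not called. The share of members called higher is the same as that of all genes. At least 2-fold higher were 10 members (17.9%, against 14.3%) and at least 2-fold lower 25 (44.6%, against 12.9%). In the comparison of CiLC with LC, 26 members were higher and 28 lower in CiLC (46.4% and 50%, against 35% and 35.6%), with Nid1 and Mgp not called. At least 2-fold higher in CiLC were 18 members (32.1%, against 11.4%) and at least 2-fold lower 12 (21.4%, against 14%). With libraries scaled by their totals alone, the counts for CiLC against LC were 28 higher and 19 lower, and 19 and 8 at least 2-fold. That scaling moved the median log2 fold change of all genes to 0.22 in this comparison. Here and below, shares of all genes were counted for the main setting only, so counts under other settings have no such share beside them. Each pair of these comparisons shares libraries, so their counts are not independent of each other.

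The median size of the log2 fold change over the members was 0.59 for CiLC against MEF, 1.52 for LC against MEF and 1.03 for CiLC against LC, beside 0.25, 0.45 and 0.44 over all genes tested. The signed medians of the members were -0.17, -0.30 and -0.11, beside 0.01, -0.01 and 0.00 over all genes. The highest mean was in MEF for 24 members, in CiLC for 13 and in LC for 19, whereas LC was the most frequent highest group over all genes (40.5%, against 31.1% for MEF and 28.4% for CiLC).

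Setting all 6 libraries side by side, both CiLC libraries lay below the other 4 for 18 of 56 members. That is a larger share than the 17.8% of all genes. They lay above the other 4 for 13 of 56, near the 20% of all genes. For 12 of 56, such as Eln, Postn and Aspn, both CiLC libraries lay below MEF and above LC. That share is above the 14% of all genes. For 9 of 56, such as Lama1, Prelp and Ecm1, they lay above MEF and below LC, near the 13.8% of all genes. The other 4 members, Lama4, Thbs2, Sparc and Mgp, had a CiLC library that overlapped another group. These places rest on 2 libraries a group and for Acan on single reads.

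**Figure D2:**
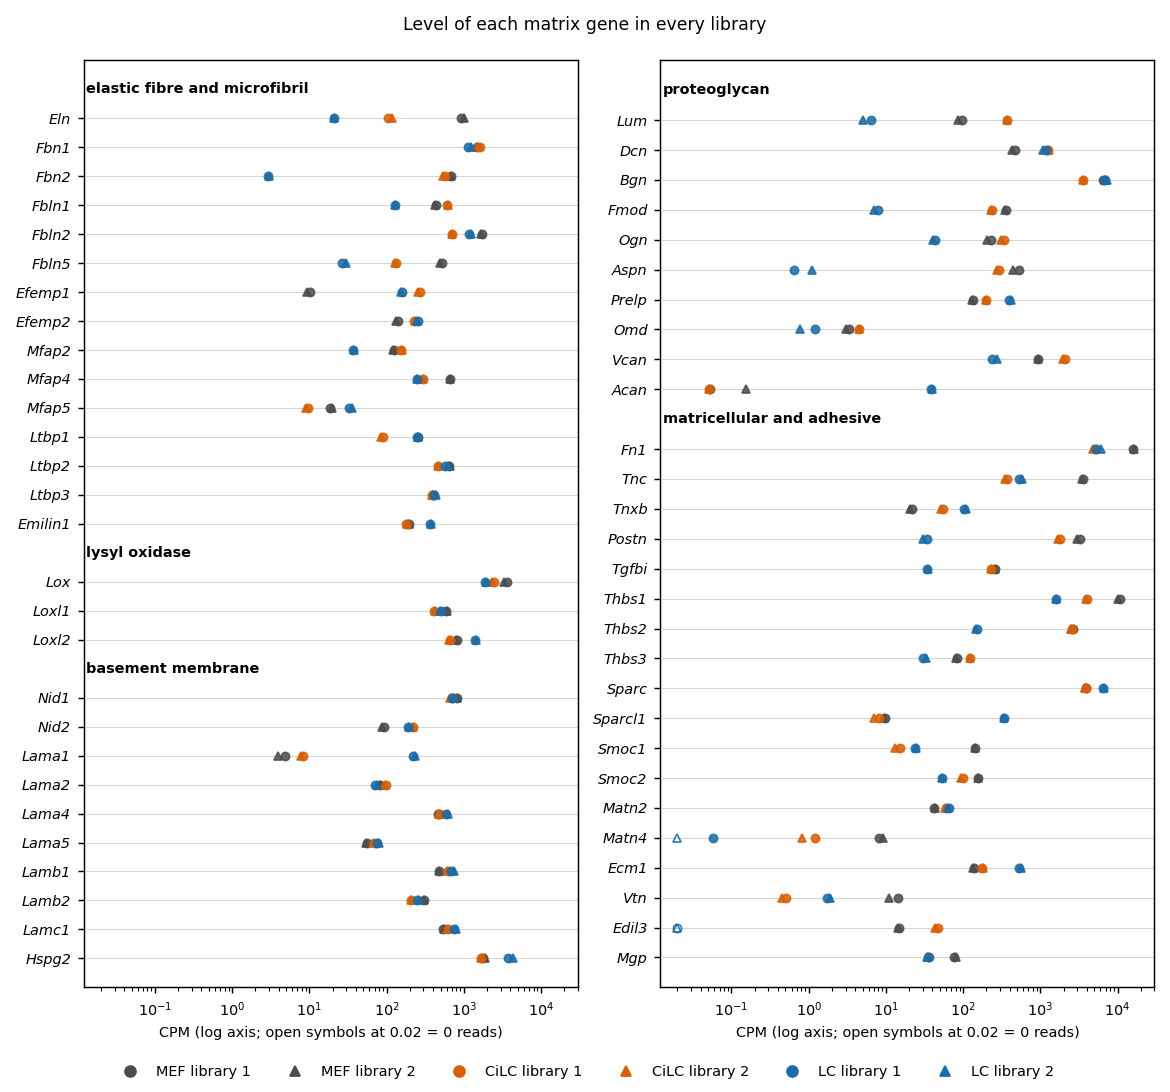
Level of each of the 56 members in each library, in CPM on a log axis, grouped by class, with colour for the group and shape for the library, and open symbols for 0 reads. The libraries of a group sit close together for nearly all genes, and the widest gaps between groups are at Acan, Aspn, Fbn2, Edil3 and Matn4, where LC is apart from both fibroblast groups.

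**Figure D3:**
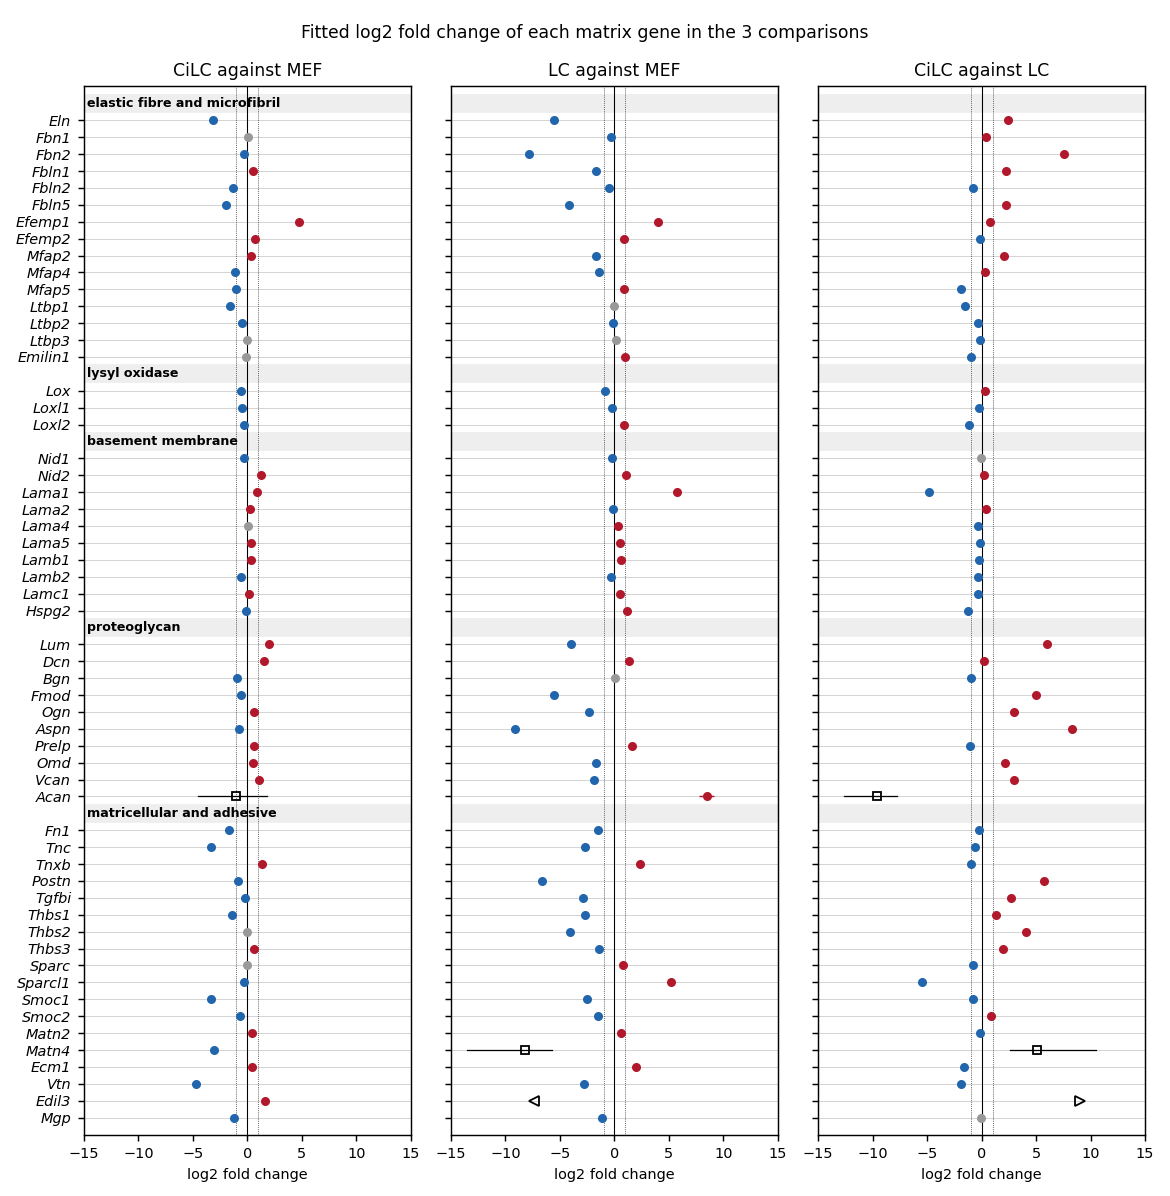
Log2 fold change of each member in the 3 comparisons, with bars of 1 standard error, red for called higher, blue for called lower and grey for not called. Open squares are ratios of reads with an exact 95% interval where a group had 1 to 3 reads, the arrow is a lower bound for Edil3, and the dotted lines mark 2-fold. Most points lie to the left in the matricellular and elastic fibre classes for CiLC and LC against MEF.

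The 250 bases before the start of the gene are shown for the members with the largest called rise and fall against MEF, among the 35 members with a promoter window in the RefSeq table (build GRCm38.p6). They are Efemp1 and Vtn for CiLC, and Acan and Aspn for LC. Capitals mark matches on either strand to 4 motifs: the TATA box (TATAAA), AP-1 (TGANTCA), TEAD (GGAATG) and NR5A1, the steroidogenic factor (AAGGTCA). All run 5′ to 3′ on the + strand.
Efemp1, chr11:28852955-28853204: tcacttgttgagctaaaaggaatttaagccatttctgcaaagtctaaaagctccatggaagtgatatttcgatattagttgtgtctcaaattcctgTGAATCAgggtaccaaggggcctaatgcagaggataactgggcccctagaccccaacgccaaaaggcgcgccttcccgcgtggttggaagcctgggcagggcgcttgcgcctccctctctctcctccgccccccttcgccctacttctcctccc
Vtn, chr11:78498870-78499119: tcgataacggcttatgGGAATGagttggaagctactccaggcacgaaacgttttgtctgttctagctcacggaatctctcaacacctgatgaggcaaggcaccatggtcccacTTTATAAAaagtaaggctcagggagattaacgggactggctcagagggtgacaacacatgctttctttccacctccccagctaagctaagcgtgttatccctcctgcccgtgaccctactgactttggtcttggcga
Acan, chr7:79052976-79053225: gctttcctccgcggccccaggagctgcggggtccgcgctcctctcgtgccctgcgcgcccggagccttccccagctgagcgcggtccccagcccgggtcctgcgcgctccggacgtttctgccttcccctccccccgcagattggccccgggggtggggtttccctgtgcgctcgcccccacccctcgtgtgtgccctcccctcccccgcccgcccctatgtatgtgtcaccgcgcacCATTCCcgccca
Aspn, chr13:49544193-49544442: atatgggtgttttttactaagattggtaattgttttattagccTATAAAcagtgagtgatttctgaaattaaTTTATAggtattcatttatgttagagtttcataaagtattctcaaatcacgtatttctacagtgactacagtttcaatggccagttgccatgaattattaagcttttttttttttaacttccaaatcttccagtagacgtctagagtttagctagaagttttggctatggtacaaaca
The Efemp1 window held 1 AP-1 match, 154 bases before the start. That of Vtn held overlapping TATAAA matches on opposite strands, beginning 137 and 135 bases before the start, and a TEAD match at 234. That of Acan held a TEAD match 12 bases before the start, and that of Aspn TATAAA matches at 207 and 178. Over the 35 members with a window, TATAAA was found in 7, the AP-1 motif in 3, the TEAD motif in 6 and the NR5A1 motif in 2. Of all 32536 windows of that length, 12.3% held TATAAA, 6.73% the AP-1 motif, 12.6% the TEAD motif and 4.09% the NR5A1 motif. Members were counted once each, for a match in any of their windows, whereas the shares over all windows are of single windows. These counts and shares are therefore not of the same unit. A match is a description of letters only.

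Among the 15 genes of elastic fibres and microfibrils, 4 rose and 8 fell in CiLC against MEF (1 and 6 at least 2-fold). That is 26.7% and 53.3%, so the share that rose was near the 26.1% of all genes and the share that fell was above their 25.5%. In LC against MEF 4 rose and 9 fell (1 and 6 at least 2-fold), or 26.7% and 60%, against 35.7% and 35% of all genes. Against LC 8 were higher and 7 lower in CiLC (5 and 3), or 53.3% and 46.7%, against 35% and 35.6%. Elastin (Eln), the rubber-like core, was at 920.4 and 1007 CPM in MEF, 103 and 116 in CiLC and 21.1 and 21.1 in LC. Each gap was well outside the spread of the pairs. Eln was 8.78-fold below MEF in CiLC (edgeR adjusted p = 8.15e-22, log2 fold change -3.14, SE 0.056) and 45.7-fold below in LC (edgeR adjusted p = 1.81e-25, log2 fold change -5.51, SE 0.078). Eln was 5.2-fold higher in CiLC than in LC (edgeR adjusted p = 4.47e-18, log2 fold change 2.38, SE 0.082). Fbln5, a fibulin that places elastin on microfibrils, ran the same way, at 521 and 496 CPM in MEF, 131 and 128 in CiLC and 26.4 and 30.1 in LC. It fell 3.92-fold in CiLC (edgeR adjusted p = 2.28e-19, log2 fold change -1.97, SE 0.05) and 18.01-fold in LC (edgeR adjusted p = 1.64e-24, log2 fold change -4.17, SE 0.065).

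The fibrillins, which polymerise into the microfibrils, divided by group. Fbn1, the main fibrillin after birth, was at 1487 and 1496 CPM in MEF, 1612 and 1503 in CiLC and 1121 and 1247 in LC. MEF and CiLC lay within 1.04-fold of each other (edgeR adjusted p = 0.334, log2 fold change 0.062, SE 0.052) and LC was 1.26-fold below MEF (edgeR adjusted p = 5.32e-06, log2 fold change -0.33, SE 0.052). Fbn2, the fibrillin made mainly before birth, was at 687 and 679 CPM in MEF, 578 and 545 in CiLC and 2.96 and 3 in LC. It was 229-fold lower in LC than in MEF (edgeR adjusted p = 6.61e-27, log2 fold change -7.84, SE 0.14) and 188-fold higher in CiLC than in LC (edgeR adjusted p = 1.92e-26, log2 fold change 7.55, SE 0.14), whereas CiLC lay 1.22-fold below MEF (edgeR adjusted p = 1.22e-05, log2 fold change -0.28, SE 0.045). Per length, Fbn2 made up 33.4% and 33.0% of fibrillin transcripts in MEF, 28% and 28.3% in CiLC and 0.286% and 0.261% in LC.

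Fibulins are short linkers between elastic fibres, basement membranes and proteoglycans. Efemp1, also called fibulin-3, was the member that rose most in CiLC, with 10.2 and 9.37 CPM in MEF, 267 and 253 in CiLC and 159.9 and 154 in LC. It was 26.6-fold above MEF in CiLC (edgeR adjusted p = 1.22e-23, log2 fold change 4.73, SE 0.084), 16.1-fold above in LC (edgeR adjusted p = 4.73e-23, log2 fold change 4.01, SE 0.085), and 1.65-fold higher in CiLC than in LC (edgeR adjusted p = 3.1e-12, log2 fold change 0.73, SE 0.048). Efemp2, or fibulin-4, which recruits lysyl oxidase to elastin, was at 141 and 133 CPM in MEF, 225 and 233 in CiLC and 252 and 248 in LC. It rose 1.67-fold in CiLC (edgeR adjusted p = 6.33e-12, log2 fold change 0.74, SE 0.048) and 1.82-fold in LC (edgeR adjusted p = 1.21e-13, log2 fold change 0.87, SE 0.048). The small gap between CiLC and LC (edgeR adjusted p = 0.0178, log2 fold change -0.13, SE 0.046) lost its call in 5 other settings (here and below, not counting those that assume a coefficient of variation) and changed sign with totals alone. Fbln1 was at 435 and 429 CPM in MEF, 615 and 628 in CiLC and 129 and 130.4 in LC. Fbln1 was 1.44-fold up in CiLC (edgeR adjusted p = 5.18e-10, log2 fold change 0.53, SE 0.044) and 3.33-fold down in LC (edgeR adjusted p = 1.47e-19, log2 fold change -1.74, SE 0.047). Fbln2, which binds fibronectin and laminins, was lowest in CiLC, at 1710.5 and 1694 CPM in MEF, 702 and 705 in CiLC and 1168 and 1245 in LC. This was a fall of 2.42-fold from MEF (edgeR adjusted p = 1.45e-16, log2 fold change -1.27, SE 0.046). Within the fibulins, per length, Efemp1 made up 0.829% and 0.779% in MEF, 24.9% and 23.6% in CiLC and 17.7% and 16.6% in LC. Fbln2 made up 59.3% and 60.0% in MEF, 27.9% and 28.1% in CiLC and 55.0% and 56.9% in LC.

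The microfibril-associated proteins did not move as a set. Mfap2, which binds fibrillin, was at 125 and 121 CPM in MEF, 155 and 158 in CiLC and 36.6 and 37.5 in LC. Mfap2 rose 1.27-fold in CiLC (edgeR adjusted p = 1.56e-06, log2 fold change 0.34, SE 0.046) and fell 3.33-fold in LC (edgeR adjusted p = 2.91e-18, log2 fold change -1.73, SE 0.057). Its relative Mfap5 ran the opposite way, at 18.6 and 19.9 CPM in MEF, 9.57 and 9.18 in CiLC and 32.6 and 35.8 in LC. CiLC lay 2.06-fold below MEF (edgeR adjusted p = 3.55e-09, log2 fold change -1.04, SE 0.098) and LC 1.78-fold above (edgeR adjusted p = 2.45e-09, log2 fold change 0.83, SE 0.08). Mfap4, a fibrinogen-related protein of elastic fibres, was at 654 and 662 CPM in MEF, 295 and 299.6 in CiLC and 249 and 246 in LC. Mfap4 fell in both groups, 2.21-fold (edgeR adjusted p = 4.02e-16, log2 fold change -1.15, SE 0.044) and 2.66-fold (edgeR adjusted p = 2.84e-18, log2 fold change -1.41, SE 0.045). In these 3 genes no library overlapped another group, and the narrowest gap was that of Mfap4 between CiLC and LC, at 1.2-fold (edgeR adjusted p = 1.99e-05, log2 fold change 0.26, SE 0.045).

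Some of the latent TGF-beta binding proteins anchor that growth factor in the matrix. Ltbp1 was at 259 and 253 CPM in MEF, 90.5 and 85 in CiLC and 249 and 259 in LC. CiLC were 2.92-fold below MEF (edgeR adjusted p = 1.67e-17, log2 fold change -1.54, SE 0.05) and 2.89-fold below LC (edgeR adjusted p = 5.92e-18, log2 fold change -1.53, SE 0.05), while MEF and LC overlapped (edgeR adjusted p = 0.828, log2 fold change -0.012, SE 0.047). Ltbp2, which sits on microfibrils, was at 649 and 662 CPM in MEF, 464 and 469 in CiLC and 569 and 627 in LC. CiLC lay 1.41-fold below MEF (edgeR adjusted p = 1.12e-08, log2 fold change -0.49, SE 0.049). Its fall in LC (edgeR adjusted p = 0.0183, log2 fold change -0.13, SE 0.049) lost its call without MEF replicate 2 and without LC replicate 1, with adjusted p-values of 0.0815 to 0.247. Ltbp3 was at 394 and 397 CPM in MEF, 389 and 388 in CiLC and 414 and 431 in LC. Neither group was called against MEF. It was called lower in CiLC than in LC (edgeR adjusted p = 0.02, log2 fold change -0.12, SE 0.045), a call that 5 other settings lost and that changed sign with totals alone. Emilin1, which sits between elastin and microfibrils, was at 194 and 194 CPM in MEF, 179 and 186 in CiLC and 362 and 377 in LC. Emilin1 was 1.90-fold above MEF in LC (edgeR adjusted p = 1.47e-14, log2 fold change 0.93, SE 0.046) and not called in CiLC (edgeR adjusted p = 0.116, log2 fold change -0.09, SE 0.047).

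The lysyl oxidases crosslink elastin and collagen by oxidising lysines. All 3 fell in CiLC against MEF, none by 2-fold, beside 25.5% of all genes. In LC against MEF Lox and Loxl1 fell and Loxl2 rose, or 66.7% and 33.3%, beside 35% and 35.7% of all genes. These shares rest on 3 genes. With library totals alone Lox fell by 1.01 on the log2 scale in LC, past 2-fold. Lox, the most abundant of them, was at 3669 and 3357 CPM in MEF, 2429 and 2308 in CiLC and 1910.0 and 1950.5 in LC. Lox fell 1.48-fold in CiLC (edgeR adjusted p = 1.37e-09, log2 fold change -0.57, SE 0.05) and 1.82-fold in LC (edgeR adjusted p = 3.03e-13, log2 fold change -0.86, SE 0.05). Loxl1, which acts on elastin, was at 580.0 and 600.4 CPM in MEF, 407 and 420.1 in CiLC and 500.2 and 498 in LC. Loxl1 fell 1.43-fold in CiLC (edgeR adjusted p = 1.28e-09, log2 fold change -0.51, SE 0.045) and 1.18-fold in LC (edgeR adjusted p = 4.59e-05, log2 fold change -0.24, SE 0.045). CiLC lay 1.21-fold below LC (edgeR adjusted p = 1.29e-05, log2 fold change -0.27, SE 0.045), a call lost with totals alone (adjusted p = 0.26). Loxl2, which crosslinks collagen IV of basement membranes, was at 807 and 790.5 CPM in MEF, 654 and 649 in CiLC and 1409 and 1454 in LC. It was 1.23-fold below MEF in CiLC (edgeR adjusted p = 7.43e-06, log2 fold change -0.29, SE 0.045) and 1.79-fold above in LC (edgeR adjusted p = 5.02e-14, log2 fold change 0.84, SE 0.044), so that CiLC lay 2.20-fold below LC (edgeR adjusted p = 2.07e-16, log2 fold change -1.14, SE 0.044), which was -0.92 with library totals alone. Per length, and with Loxl3 and Loxl4 counted in, Loxl2 made up 13.2% and 13.7% of lysyl oxidase transcripts in MEF, 15.6% and 16.0% in CiLC and 31.4% and 31.8% in LC.

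Among the 10 basement membrane genes, 6 rose and 3 fell in CiLC against MEF (1 and 0 at least 2-fold), and 7 rose and 3 fell in LC against MEF (3 and 0 at least 2-fold). The rises, 60% and 70%, were above the 26.1% and 35.7% of all genes, and the falls, 30% in both, were near their 25.5% and 35%. Against LC, 2 were higher and 7 lower in CiLC (0 and 2), or 20% and 70% against 35% and 35.6% of all genes, which became 3 and 3 with libraries scaled by their totals alone. That scaling also left 1 of the 3 rises of at least 2-fold in LC, since Nid2 and Hspg2 came to log2 fold changes of 0.93 and 0.996. Without MEF replicate 1, the rises of at least 2-fold in CiLC went from 1 to 2, with Lama1 at 1.04. Lama1, the laminin alpha chain of early embryonic and some epithelial basement membranes, stood apart, at 4.77 and 3.9 CPM in MEF, 8.19 and 7.91 in CiLC and 218 and 231 in LC. It was 51.7-fold above MEF in LC (edgeR adjusted p = 6.13e-25, log2 fold change 5.69, SE 0.12), 1.86-fold above in CiLC (edgeR adjusted p = 8.14e-06, log2 fold change 0.89, SE 0.14), and 27.9-fold lower in CiLC than in LC (edgeR adjusted p = 2.13e-24, log2 fold change -4.80, SE 0.09). Lama4, the alpha chain of mesenchymal and vascular cells, was at 465 and 477 CPM in MEF, 489.6 and 476 in CiLC and 582 and 627 in LC. Lama4 was not called in CiLC (edgeR adjusted p = 0.567, log2 fold change 0.035, SE 0.047) and rose 1.28-fold in LC (edgeR adjusted p = 4.65e-07, log2 fold change 0.36, SE 0.047). Lama5, found in many mature basement membranes, was at 55.9 and 54.6 CPM in MEF, 70.4 and 66.3 in CiLC and 74.2 and 80.7 in LC. Lama5 rose 1.24-fold in CiLC (edgeR adjusted p = 0.000104, log2 fold change 0.31, SE 0.058) and 1.40-fold in LC (edgeR adjusted p = 9.75e-08, log2 fold change 0.49, SE 0.058). Lama2, the chain of muscle and nerve, was at 81 and 81.5 CPM in MEF, 99.7 and 95.9 in CiLC and 71.4 and 75.1 in LC. Lama2 rose 1.2-fold in CiLC (edgeR adjusted p = 0.000113, log2 fold change 0.27, SE 0.051). Its fall in LC (edgeR adjusted p = 0.0154, log2 fold change -0.15, SE 0.053) was lost with DESeq2, without MEF replicate 2 and without LC replicate 1. Per length, Lama4 was the main alpha chain in all groups, with 83.8% and 84.2% of alpha chain transcripts in MEF, 82.1% and 82.4% in CiLC and 72.3% and 72.6% in LC, while Lama1 took 0.545% and 0.437%, 0.872% and 0.869%, and 17.2% and 17.0%.

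The beta and gamma chains complete the laminin trimer. Lamb1 was at 479 and 482 CPM in MEF, 629.9 and 612 in CiLC and 679.9 and 747 in LC. Lamb1 rose 1.29-fold in CiLC (edgeR adjusted p = 1.02e-06, log2 fold change 0.37, SE 0.049) and 1.48-fold in LC (edgeR adjusted p = 3.84e-10, log2 fold change 0.57, SE 0.049). Lamb2, the later beta chain, was at 307 and 308 CPM in MEF, 208 and 207 in CiLC and 248 and 261 in LC. Lamb2 fell by 1.48-fold in CiLC (edgeR adjusted p = 3.21e-10, log2 fold change -0.57, SE 0.046) and 1.21-fold in LC (edgeR adjusted p = 1.15e-05, log2 fold change -0.28, SE 0.046). Lamc1, the common gamma chain, was at 545 and 556 CPM in MEF, 625 and 604 in CiLC and 737 and 791 in LC. Lamc1 rose 1.39-fold in LC (edgeR adjusted p = 5.09e-09, log2 fold change 0.47, SE 0.047). Its rise of 1.12-fold in CiLC (edgeR adjusted p = 0.00715, log2 fold change 0.16, SE 0.047) was lost without CiLC replicate 1 and without MEF replicate 1. The calls of Lama5, Lamb1, Lamb2 and Lamc1 between CiLC and LC were each lost when libraries were scaled by their totals alone, with adjusted p-values of 0.573, 0.795, 0.13 and 0.0525, and Lama5 and Lamb1 changed sign there.

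The linkers of the sheet gave mixed results. Nid2, a nidogen that ties laminin to collagen IV, was at 93.8 and 87.4 CPM in MEF, 218 and 222 in CiLC and 189.7 and 193 in LC. Nid2 was 2.43-fold above MEF in CiLC (edgeR adjusted p = 4.35e-16, log2 fold change 1.28, SE 0.05) and 2.11-fold above in LC (edgeR adjusted p = 4.66e-15, log2 fold change 1.08, SE 0.05). Nid1, the more abundant nidogen, was at 822 and 816 CPM in MEF, 694 and 659 in CiLC and 696 and 747 in LC. Nid1 fell 1.21-fold in CiLC (edgeR adjusted p = 3.51e-05, log2 fold change -0.28, SE 0.047) and 1.14-fold in LC (edgeR adjusted p = 0.00155, log2 fold change -0.18, SE 0.048). CiLC and LC were not called apart for Nid1 (edgeR adjusted p = 0.0871, log2 fold change -0.093, SE 0.048), though both CiLC libraries lay below both LC libraries. Nid2 made up 12.5% and 11.8% of nidogen transcripts per length in MEF, 28.2% and 29.7% in CiLC and 25.4% and 24.4% in LC. Hspg2, the heparan sulfate proteoglycan perlecan, was at 1787 and 1893 CPM in MEF, 1680.4 and 1646 in CiLC and 3773 and 4364 in LC. Hspg2 was 2.21-fold above MEF in LC (edgeR adjusted p = 1.45e-14, log2 fold change 1.14, SE 0.056). Its small fall in CiLC (edgeR adjusted p = 0.0344, log2 fold change -0.15, SE 0.056) was lost in 6 other settings, with adjusted p-values of 0.106 to 0.251. Beside these LC values stand the higher Sertoli and endothelial marker sums of LC given above. Of 5 Sertoli markers tested, 5 were higher in LC against MEF (100%, beside 35.7% of all genes). The endothelial list was split, with 2 of 5 tested higher and 1 lower (40% and 20%, beside 35.7% and 35%). The part of these markers was not tested.

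**Figure D4:**
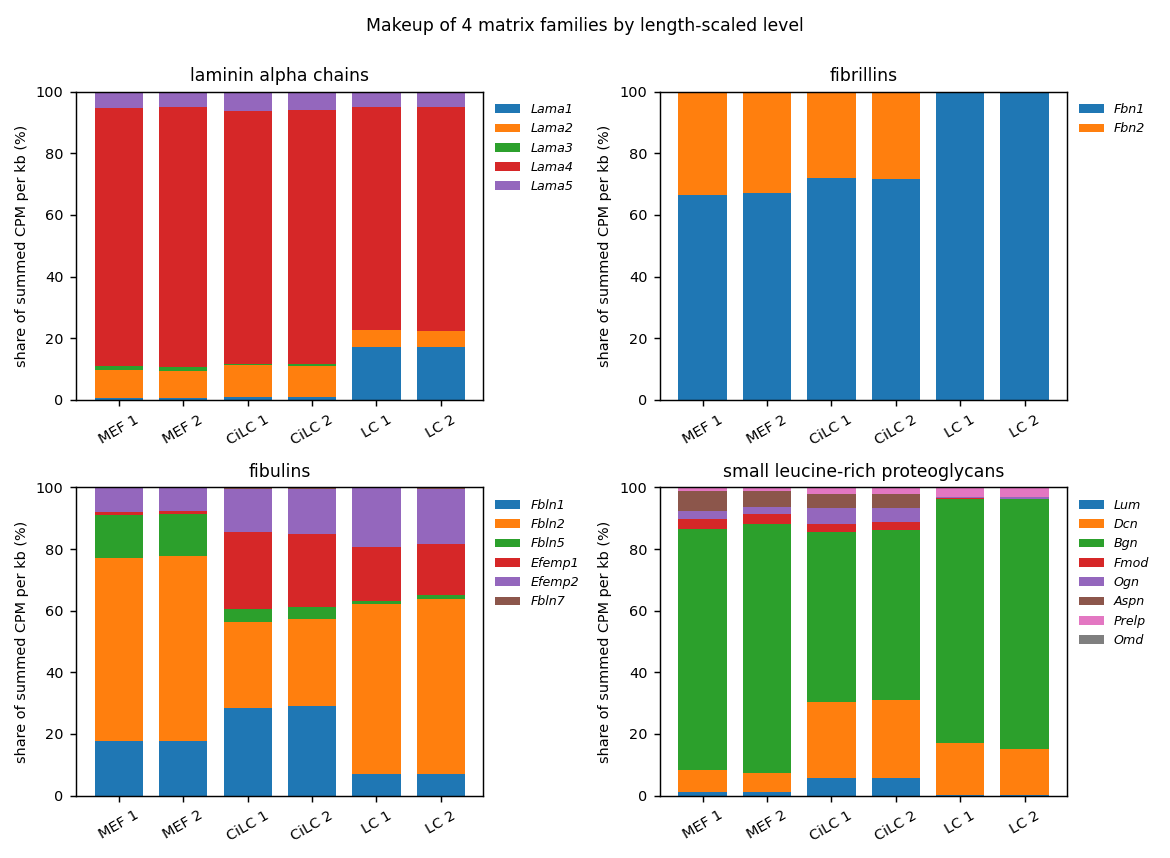
Stacked bars, 1 per library, of the share of each gene in 4 families, in percent of the summed CPM per kb of the family. Lama1 rises to 17.2% and 17.0% of the laminin alpha chains in LC, Fbn2 drops below 0.3% of the fibrillins in LC, and Efemp1 and Dcn take larger shares of the fibulins and leucine-rich proteoglycans in CiLC and LC than in MEF.

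Among the 10 proteoglycans, 6 rose and 3 fell in CiLC against MEF (3 and 0 at least 2-fold), whereas 3 rose and 6 fell in LC against MEF (3 and 6 at least 2-fold). Of all genes 26.1% rose and 25.5% fell in CiLC, and 35.7% and 35% in LC, so the 30% of proteoglycans that fell in CiLC and the 30% that rose in LC were near those shares. Against LC, 7 were higher and 3 lower in CiLC (6 and 3), or 70% and 30% against 35% and 35.6% of all genes. The 3 at least 2-fold lower became 1 with upper-quartile scaling, with library totals alone and without LC replicate 2, as Bgn and Prelp lie close to 2-fold. Decorin (Dcn), which binds collagen fibrils and TGF-beta, was at 475 and 434 CPM in MEF, 1261 and 1299 in CiLC and 1176 and 1072 in LC. It rose 2.82-fold in CiLC (edgeR adjusted p = 1.06e-16, log2 fold change 1.49, SE 0.053) and 2.47-fold in LC (edgeR adjusted p = 3.69e-16, log2 fold change 1.31, SE 0.053). CiLC were 1.14-fold above LC (edgeR adjusted p = 0.00285, log2 fold change 0.19, SE 0.052), which was lost without LC replicate 2 (adjusted p = 0.0747). Lumican (Lum), next to Dcn on chromosome 10 and also a fibril coat protein, did not follow it in LC, at 96.6 and 85.9 CPM in MEF, 373 and 369.6 in CiLC and 6.44 and 5 in LC. Lum rose 4.07-fold in CiLC (edgeR adjusted p = 7.26e-19, log2 fold change 2.02, SE 0.055) and fell 15.9-fold in LC (edgeR adjusted p = 1.18e-20, log2 fold change -3.99, SE 0.12), a gap of 64.8-fold between CiLC and LC (edgeR adjusted p = 9.14e-25, log2 fold change 6.02, SE 0.12). Biglycan (Bgn), the closest relative of decorin, was at 6490.3 and 6777 CPM in MEF, 3520.1 and 3520.1 in CiLC and 6883 and 7251 in LC. CiLC lay 1.88-fold below MEF (edgeR adjusted p = 1.22e-13, log2 fold change -0.91, SE 0.047) and 2.01-fold below LC (edgeR adjusted p = 7.29e-15, log2 fold change -1.01, SE 0.047). LC and MEF were not called apart for Bgn (edgeR adjusted p = 0.0905, log2 fold change 0.091, SE 0.047), though DESeq2 called LC higher (DESeq2 adjusted p = 0.0285, log2 fold change 0.094). Per length, Bgn made up 78.2% and 80.6% of leucine-rich proteoglycan transcripts in MEF, 55.0% and 55.0% in CiLC and 79.4% and 81.3% in LC, and Dcn 7.14% and 6.44%, 24.6% and 25.3%, and 16.9% and 15%.

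Fibromodulin (Fmod), which shares a collagen site with lumican, was at 358 and 353 CPM in MEF, 234 and 232 in CiLC and 7.94 and 6.95 in LC. Fmod fell 1.52-fold in CiLC (edgeR adjusted p = 6.29e-11, log2 fold change -0.61, SE 0.045) and 47.7-fold in LC (edgeR adjusted p = 1.13e-25, log2 fold change -5.58, SE 0.094). Fmod was 31.3-fold higher in CiLC than in LC (edgeR adjusted p = 1.62e-24, log2 fold change 4.97, SE 0.095). Its neighbour on chromosome 1, Prelp, an anchor of basement membrane to connective tissue, ran the opposite way, at 134 and 130.5 CPM in MEF, 196 and 197 in CiLC and 393 and 421 in LC. Prelp rose 1.49-fold in CiLC (edgeR adjusted p = 1.2e-09, log2 fold change 0.57, SE 0.05) and 3.07-fold in LC (edgeR adjusted p = 9.77e-19, log2 fold change 1.62, SE 0.049). On chromosome 13, Aspn, Omd and Ogn follow one another. Asporin (Aspn), which binds collagen and TGF-beta, was at 523 and 437 CPM in MEF, 292 and 274 in CiLC and 0.638 and 1.12 in LC. Aspn fell 1.70-fold in CiLC (edgeR adjusted p = 4.13e-10, log2 fold change -0.76, SE 0.062) and 543-fold in LC (edgeR adjusted p = 2.35e-24, log2 fold change -9.09, SE 0.35). Aspn was 320-fold higher in CiLC than in LC (edgeR adjusted p = 3.48e-23, log2 fold change 8.32, SE 0.35). With single libraries left out, its log2 fold change in LC against MEF lay between -9.54 and -8.74. Mimecan (Ogn) was at 230.0 and 201 CPM in MEF, 336 and 309 in CiLC and 43.4 and 40.8 in LC. Ogn rose 1.5-fold in CiLC (edgeR adjusted p = 8.24e-09, log2 fold change 0.58, SE 0.057) and fell 5.12-fold in LC (edgeR adjusted p = 5.01e-19, log2 fold change -2.35, SE 0.07). Osteomodulin (Omd), a bone proteoglycan, was near the bottom of the range, at 3.35 and 3.02 CPM in MEF, 4.53 and 4.46 in CiLC and 1.22 and 0.765 in LC. Omd was 4.5-fold higher in CiLC than in LC (edgeR adjusted p = 5.51e-08, log2 fold change 2.17, SE 0.28), with 1.88 to 2.55 on the log2 scale when single libraries were left out. Its fall in LC against MEF (edgeR adjusted p = 6.59e-06, log2 fold change -1.68, SE 0.29) lay between -2.05 and -1.38 on the log2 scale with single libraries left out, and its rise in CiLC (edgeR adjusted p = 0.0347, log2 fold change 0.50, SE 0.19) was lost in 5 other settings.

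**Figure D5:**
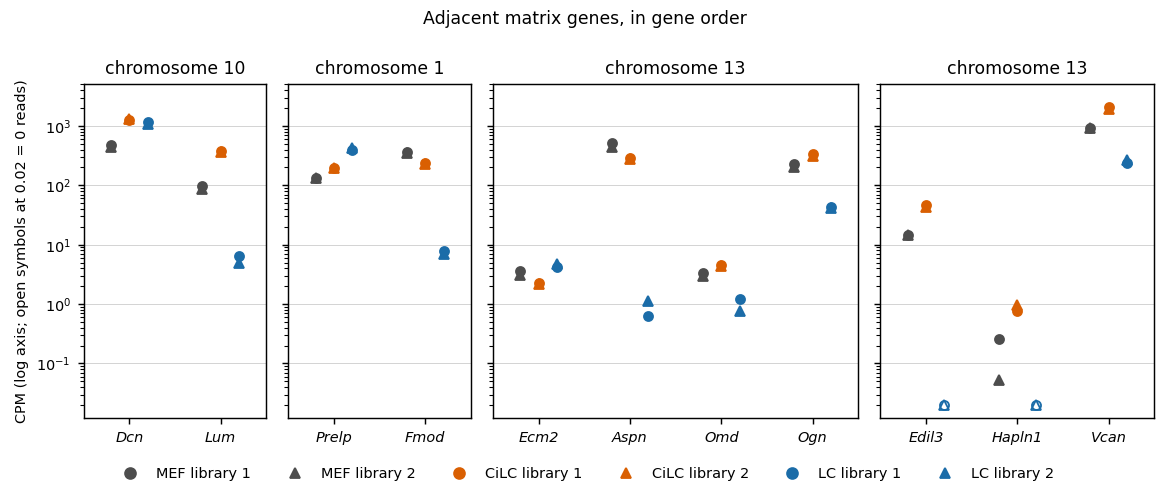
CPM on a log axis, per library, of matrix genes next to each other on a chromosome in RefSeq gene order (Ecm2 and Hapln1 are no members), with open symbols for 0 reads. Dcn and Lum, and Fmod and Prelp, part in LC, where Dcn is at 1176 and 1072 CPM and Lum at 6.44 and 5.00, whereas Aspn, Omd and Ogn are all lowest in LC.

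The large hyaluronan-binding proteoglycans changed places. Versican (Vcan), of loose and embryonic connective tissue, was at 939 and 923 CPM in MEF, 2058 and 1949.6 in CiLC and 239 and 271 in LC. It rose 2.15-fold in CiLC (edgeR adjusted p = 1.85e-14, log2 fold change 1.11, SE 0.052) and fell 3.64-fold in LC (edgeR adjusted p = 6.85e-19, log2 fold change -1.87, SE 0.054), so CiLC stood 7.85-fold above LC (edgeR adjusted p = 2.3e-22, log2 fold change 2.97, SE 0.054). Aggrecan (Acan), the main proteoglycan of cartilage, had 4 reads in MEF in all and 2 in CiLC, but 666 and 665 in the LC libraries (38.6 and 39.1 CPM). Its ratio of LC to CiLC was 765 (exact 95% interval 211 to 6326, for counting error only), and LC against MEF was called (edgeR adjusted p = 1.57e-20, log2 fold change 8.45, SE 0.65), with a log2 fold change between 7.89 and 9.36 when single libraries were left out, the highest being without MEF replicate 2, which held 3 of the 4 MEF reads. No fold is given for CiLC against MEF. Per length, Acan made up 21.4% and 19.6% of the transcripts of Vcan, Acan, Ncan and Bcan in LC. Of the cartilage markers, Col2a1, the cartilage collagen, was at 0 in both LC libraries, while Sox9 was higher in LC, at 45.1 and 47.5 CPM against 8.13 and 8.54 in MEF. The chondrocyte and osteoblast markers summed to 76.9 and 82.1 CPM in LC, 60.0 and 60.8 in MEF and 48.4 and 45.8 in CiLC. Sox9, which is also on the Sertoli list, made up 45.1 and 47.5 CPM of the LC sums. Of 3 such markers tested, 1 was higher and 2 were lower in LC against MEF. That is 33.3% and 66.7%, beside 35.7% and 35% of all genes. The part of these markers was not tested.

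Among the 18 matricellular and adhesive genes, 5 rose and 11 fell in CiLC against MEF (2 and 7 at least 2-fold), and 5 rose and 13 fell in LC against MEF (3 and 13 at least 2-fold). The share that rose, 27.8% in both, was near the 26.1% of all genes in CiLC and below their 35.7% in LC, while the shares that fell, 61.1% and 72.2%, were above 25.5% and 35%. Between CiLC and LC, 8 were higher and 9 lower in CiLC (7 and 3), or 44.4% and 50% against 35% and 35.6%. Fibronectin (Fn1), the fibril that cells bind by integrins, was at 15937 and 16178 CPM in MEF, 5074 and 4766 in CiLC and 5279 and 6072 in LC. It fell 3.26-fold in CiLC (edgeR adjusted p = 4.05e-17, log2 fold change -1.71, SE 0.057) and 2.83-fold in LC (edgeR adjusted p = 1.07e-16, log2 fold change -1.50, SE 0.057). CiLC lay 1.15-fold below LC (edgeR adjusted p = 0.00263, log2 fold change -0.21, SE 0.057), a call lost in 4 other settings, with the sign changed under totals alone. Tenascin C (Tnc), of wounds and embryonic mesenchyme, was at 3589 and 3477 CPM in MEF, 368 and 354 in CiLC and 526 and 587 in LC. Tnc fell 9.79-fold in CiLC (edgeR adjusted p = 1.71e-22, log2 fold change -3.29, SE 0.052) and 6.35-fold in LC (edgeR adjusted p = 4.95e-22, log2 fold change -2.67, SE 0.051). Tenascin X (Tnxb), which binds collagen in mature connective tissue, was at 21.5 and 20.7 CPM in MEF, 54.5 and 51.8 in CiLC and 101 and 110.0 in LC. Tnxb rose by 2.52-fold in CiLC (edgeR adjusted p = 1.07e-13, log2 fold change 1.33, SE 0.071) and 5.01-fold in LC (edgeR adjusted p = 1.96e-19, log2 fold change 2.32, SE 0.068). Vitronectin (Vtn), a plasma adhesion protein made mainly by liver, was low throughout, at 14.3 and 11.1 CPM in MEF, 0.509 and 0.456 in CiLC and 1.74 and 1.88 in LC. Vtn was 25.9-fold below MEF in CiLC (edgeR adjusted p = 2.83e-14, log2 fold change -4.70, SE 0.34) and 6.97-fold below in LC (edgeR adjusted p = 1.94e-12, log2 fold change -2.80, SE 0.21). Beside these falls stand the smooth muscle marker sums given above, which were likewise highest in MEF and lowest in CiLC. All 6 of these markers were lower in CiLC against MEF (100%, beside 25.5% of all genes). In LC against MEF 2 were higher and 4 lower (33.3% and 66.7%, beside 35.7% and 35%), so the list was split there. Their part was not tested.

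Thrombospondins bind cells, calcium and growth factors, and Thbs1 activates latent TGF-beta. Thbs1 was at 10842 and 10228 CPM in MEF, 4024 and 3881 in CiLC and 1579 and 1617 in LC. Thbs1 was 2.67-fold down in CiLC (edgeR adjusted p = 4.6e-17, log2 fold change -1.41, SE 0.048) and 6.59-fold down in LC (edgeR adjusted p = 1.11e-22, log2 fold change -2.72, SE 0.048). Thbs2, a brake on vessel growth, was at 2643 and 2526 CPM in MEF, 2607 and 2543 in CiLC and 150.1 and 148 in LC. MEF and CiLC overlapped (edgeR adjusted p = 0.938, log2 fold change -0.0054, SE 0.045) and LC lay 17.3-fold below MEF (edgeR adjusted p = 1.49e-25, log2 fold change -4.11, SE 0.049). Thbs3 was at 83 and 82 CPM in MEF, 121 and 123 in CiLC and 30.7 and 32.8 in LC. Thbs3 rose 1.48-fold in CiLC (edgeR adjusted p = 9.8e-10, log2 fold change 0.57, SE 0.049) and fell 2.60-fold in LC (edgeR adjusted p = 8.71e-16, log2 fold change -1.38, SE 0.06). The macrophage marker sums given above had the same order of groups as 12 members, among them Thbs1, Postn and Eln. Single markers differed. Of the 10, 3 were higher and 6 lower in CiLC against MEF (30% and 60%, beside 26.1% and 25.5% of all genes). In LC against MEF 1 was higher and 9 were lower (10% and 90%, beside 35.7% and 35%). The part of these markers was not tested. Thbs2 took 19.2% and 19.4% of thrombospondin transcripts per length in MEF, 37.8% and 38.0% in CiLC and 8.34% and 8.06% in LC. Smoc2, the chromosome 17 neighbour of Thbs2, was at 158 and 154 CPM in MEF, 100.4 and 94.8 in CiLC and 53.9 and 53.6 in LC. Smoc2 fell 1.60-fold in CiLC (edgeR adjusted p = 3.52e-11, log2 fold change -0.68, SE 0.048) and 2.90-fold in LC (edgeR adjusted p = 1.07e-17, log2 fold change -1.54, SE 0.053).

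Periostin (Postn) and Tgfbi share fasciclin domains and bind integrins. Postn was at 3260.3 and 3022 CPM in MEF, 1779 and 1701 in CiLC and 34.4 and 29.9 in LC. Postn fell 1.81-fold in CiLC (edgeR adjusted p = 1.89e-12, log2 fold change -0.85, SE 0.051) and 97.6-fold in LC (edgeR adjusted p = 7.41e-27, log2 fold change -6.61, SE 0.07). Tgfbi was at 260.2 and 262 CPM in MEF, 228 and 227 in CiLC and 33.7 and 34.7 in LC. Tgfbi was 1.14-fold below MEF in CiLC (edgeR adjusted p = 0.000684, log2 fold change -0.20, SE 0.044) and 7.63-fold below in LC (edgeR adjusted p = 9.52e-23, log2 fold change -2.93, SE 0.057). For both genes CiLC stood far above LC, 54.1-fold for Postn (edgeR adjusted p = 8.14e-26, log2 fold change 5.76, SE 0.07) and 6.66-fold for Tgfbi (edgeR adjusted p = 4.79e-22, log2 fold change 2.74, SE 0.057). Edil3, an integrin-binding protein of the matrix around vessels, was at 14.6 and 14.5 CPM in MEF, 47.3 and 43.6 in CiLC and 0 and 0 in LC. Edil3 rose 3.12-fold in CiLC (edgeR adjusted p = 6.32e-14, log2 fold change 1.64, SE 0.081). With 0 reads in both LC libraries, set at a floor of 3 reads over the group, it was at least 166-fold lower in LC than in MEF and at least 518.5-fold lower than in CiLC. Edil3 lies beside Vcan on chromosome 13 with only Hapln1 between them. Edil3 and Vcan were both higher in CiLC than in LC, while Hapln1, given below, was close to 0 in every library.

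The SPARC family binds collagen and calcium. Sparc itself was at 3931 and 3834 CPM in MEF, 3930.5 and 3826 in CiLC and 6536 and 6759.7 in LC. MEF and CiLC overlapped (edgeR adjusted p = 0.983, log2 fold change -0.0017, SE 0.046) and LC lay 1.71-fold above MEF (edgeR adjusted p = 5.13e-13, log2 fold change 0.78, SE 0.046). Sparcl1, which vessels and brain make, was at 9.7 and 9.37 CPM in MEF, 8.19 and 7.1 in CiLC and 334 and 343 in LC. Sparcl1 was 35.5-fold above MEF in LC (edgeR adjusted p = 1.49e-25, log2 fold change 5.15, SE 0.083). Its small fall in CiLC (edgeR adjusted p = 0.0217, log2 fold change -0.32, SE 0.11) was lost in 4 other settings. Smoc1, a basement membrane protein needed for eye and limb development, was at 141 and 142 CPM in MEF, 15.1 and 13.1 in CiLC and 23.9 and 24.7 in LC. Smoc1 fell 10.04-fold in CiLC (edgeR adjusted p = 1.75e-21, log2 fold change -3.33, SE 0.073) and 5.82-fold in LC (edgeR adjusted p = 1.08e-20, log2 fold change -2.54, SE 0.064).

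Of the remaining members, Ecm1, which binds perlecan and fibulins, was at 136 and 134 CPM in MEF, 178 and 182 in CiLC and 534 and 560.0 in LC. Ecm1 was 1.33-fold above MEF in CiLC (edgeR adjusted p = 1.65e-07, log2 fold change 0.42, SE 0.049) and 4.05-fold above in LC (edgeR adjusted p = 9.29e-21, log2 fold change 2.02, SE 0.047). Matn2, a matrilin of many connective tissues, was at 42 and 43.1 CPM in MEF, 60.2 and 57.7 in CiLC and 65.8 and 64.6 in LC. Matn2 rose 1.38-fold in CiLC (edgeR adjusted p = 2.76e-07, log2 fold change 0.47, SE 0.057) and 1.53-fold in LC (edgeR adjusted p = 1.58e-09, log2 fold change 0.61, SE 0.057). Its gap between CiLC and LC (edgeR adjusted p = 0.0216, log2 fold change -0.15, SE 0.055) lost its call in 5 other settings and changed sign with totals alone. Matn4, another matrilin, had 155 and 176 estimated reads in MEF, 40 in CiLC in all and 1 in LC. It was 8.46-fold lower in CiLC than in MEF (edgeR adjusted p = 3.67e-11, log2 fold change -3.08, SE 0.26), and the ratio of MEF to LC was 296 (exact 95% interval 52.8 to 11724), that of CiLC to LC 34.8 (5.89 to 1408). The single LC read lay in replicate 1, and with single libraries left out the fitted log2 fold change ran from -10.36 to -7.06 in LC against MEF and from 3.98 to 7.28 in CiLC against LC, both extremes without an LC library. Matrix Gla protein (Mgp), an inhibitor of calcification, was at 77.3 and 80.8 CPM in MEF, 34.7 and 35 in CiLC and 35.9 and 34.6 in LC. Mgp fell 2.27-fold in CiLC (edgeR adjusted p = 2.53e-14, log2 fold change -1.18, SE 0.057) and 2.24-fold in LC (edgeR adjusted p = 1.53e-14, log2 fold change -1.17, SE 0.059), with CiLC and LC overlapping.

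Genes that assemble, modify or accompany the members were counted from further lists. Of 16 tested matrix assembly and modifying enzymes, 7 rose and 5 fell in CiLC against MEF, 12 rose and 4 fell in LC against MEF, and CiLC lay above LC for 4 and below it for 12. In CiLC against MEF that is 43.8% and 31.2%, beside 26.1% and 25.5% of all genes, in LC against MEF 75% and 25%, beside 35.7% and 35%, and between CiLC and LC 25% and 75%, beside 35% and 35.6%. Tgm2, the transglutaminase that crosslinks fibronectin, was at 54.0 and 55.7 CPM in MEF, 206 and 204 in CiLC and 489.8 and 498 in LC, a rise in both groups (log2 fold change 1.90, edgeR adjusted p = 6.08e-19 in CiLC, and 3.17, edgeR adjusted p = 7.27e-24 in LC). P4ha3, a collagen prolyl hydroxylase, fell in both, from 55.2 and 52.7 CPM in MEF to 15.3 and 18.5 in CiLC and 8.41 and 8.42 in LC. Tll1, a protease that processes procollagen and lysyl oxidase precursors, fell from 21.6 and 22.6 CPM to 10.1 and 10.2 in CiLC and 0.58 and 1.06 in LC. Pcolce2, an enhancer of procollagen processing, was highest in LC, at 5.45 and 6.59 CPM, and P4ha2 was at 337 and 326 CPM in LC against 96.4 and 91.1 in CiLC.

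Of 27 glycosaminoglycan synthesis genes, which build the sugar chains of proteoglycans and hyaluronan, 6 rose and 8 fell in CiLC against MEF, 8 rose and 16 fell in LC against MEF, and CiLC lay above LC for 11 and below it for 9. Most of these shares were near those of all genes, at 22.2% and 29.6% in CiLC against MEF (26.1% and 25.5% of all genes), 29.6% for the rises in LC (35.7%), and 40.7% and 33.3% between CiLC and LC (35% and 35.6%). The falls in LC, 59.3%, were above the 35% of all genes. Has2, the main hyaluronan synthase, was at 21.1 and 21.8 CPM in MEF, 9.21 and 9.99 in CiLC and 3.48 and 4 in LC, so it fell in both (log2 fold change -1.16, edgeR adjusted p = 6.43e-10 in CiLC, and -2.52, edgeR adjusted p = 7.77e-15 in LC). Ugdh, which makes the UDP-glucuronate used in the chains, rose from 53.7 and 53.8 CPM in MEF to 70.9 and 72.6 in CiLC and 158 and 156 in LC. Chst11, which sulfates chondroitin, was at 41.8 and 47.0 CPM in MEF, 19.7 and 21.6 in CiLC and 104 and 110 in LC, and Csgalnact1, which starts chondroitin chains, at 69.9 and 67.1, 84.9 and 81.7, and 17.7 and 20.5 CPM. Csgalnact2 rose and Chst15 fell in CiLC (log2 fold changes 0.37 and -1.61).

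Of 27 tested further matrix genes in a list of 31, 13 rose and 9 fell in CiLC against MEF, 16 rose and 9 fell in LC against MEF, and CiLC lay above LC for 10 and below it for 14. The rises, 48.1% in CiLC and 59.3% in LC, and the 51.9% below LC were above the shares of all genes (26.1%, 35.7% and 35.6%). The falls, 33.3% in both, stand beside 25.5% and 35%, and the 37% above LC beside 35%. Lamc3, a laminin gamma chain, had 1 read in each MEF library, 2.65 and 2.43 CPM in CiLC and 33.2 and 32.8 CPM in LC, and was called higher in both. Spon1, a spondin that binds cells and axons, was at 4.19 and 3.33 CPM in MEF, 19.8 and 18.6 in CiLC and 233 and 229.99 in LC. Egfl6 and Podn were high in MEF and CiLC and low in LC: Egfl6 was at 281 and 275 CPM in MEF, 393 and 386 in CiLC and 0.348 and 0.824 in LC, and Podn, a leucine-rich proteoglycan, at 518 and 523, 386 and 406, and 8.58 and 8.89 CPM. Npnt, an integrin ligand of basement membranes, was highest in CiLC, at 15.9 and 13.5 CPM. The neural proteoglycans Ncan and Bcan, and Tnr, a tenascin of brain, were each at most 12.4 CPM in a library. Hapln1, the link protein that ties versican and aggrecan to hyaluronan, was below 1 CPM in every library and at 0 in both LC libraries.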

How the data were processed

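The deposited tables give expected counts (estimated reads per gene), per the file headers. The authors used HISAT and the mouse build mm9, per the submitters' processing notes. No version, counter, annotation or strand option is given in the sources used here. In a library 32.4% to 32.8% of values were not whole, and 17 members had such a value. These members are less certain, since reads may have been divided between genes, and overlapping or antisense genes are not separable. Of 18305 genes in the tables, 18179 matched a symbol in a RefSeq table of GRCm38.p6, used for names and gene order.

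After rounding to whole numbers, counts were tested with edgeR 4.0.16 (R 4.3.3). The filter was filterByExpr (minimum count 10, minimum total 15) and scaling used TMM (trimmed mean of M values). One quasi-likelihood model, with the group as its only term, took in all 6 libraries. Tests were two-sided, adjusted by Benjamini-Hochberg over 14581 genes and called at 0.05. Fold changes carry a prior count of 0.125. The common coefficient of variation was low, at 3.16%. Libraries of a group differed by more than sampling noise (chi-square per degree of freedom 2.77 in MEF, 1.80 in CiLC and 2.94 in LC), so none was taken as a repeat deposit. Levels are CPM on the scaled library sizes. Exon lengths from GENCODE M21, of another build than the counts, served only for levels per kb. Intervals and floors cover counting error only.

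The members, classes and lists were chosen with earlier results of these data known. Any member may be named, and levels go to the 3 largest called rises and falls of each class and comparison and to members whose call another setting lost. Their fits against MEF are printed, or a ratio or floor where reads were few. For CiLC against LC fits are printed only in part. Among the largest gaps left out there are those of Fbln1, Mfap5, Emilin1 and Hspg2. Of related lists the 2 largest rises and falls per comparison are named, of marker lists the 2 genes with the highest mean over all libraries. Leprel1 and Ibsp, in those lists, are not analysed here. Other settings were RLE, upper-quartile and total scaling, DESeq2 1.42.0, no filter, 4 libraries only, the replicate block, an assumed coefficient of variation of 0.1 and 0.4, and each library left out in turn.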

Additional observations from a re-analysis of the deposited data

How the results depend on the processing

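When every gene was given a coefficient of variation of 0.4, members called in CiLC against MEF dropped to 2 higher (Efemp1 and Lum) and 6 lower (Eln, Fbln5, Tnc, Smoc1, Matn4 and Vtn), all at least 2-fold. In LC against MEF 7 were then higher and 19 lower, and in CiLC against LC 17 higher and 6 lower, these 6 being at least 2-fold. At 0.1 the counts were 16 and 22, 20 and 28, and 22 and 19. Shares of all genes were not counted at 0.4 or 0.1. These counts therefore cannot show whether members were still called more often than all genes. In the other settings, counts over all members stayed within 1.5 times the reported value, and so did counts by class, with these exceptions. Scaling by totals took lysyl oxidases lower in CiLC than LC from 2 to 1 (at least 2-fold, from 1 to 0) and basement membrane genes from 7 to 3. It took lysyl oxidases at least 2-fold lower in LC than MEF from 0 to 1 and basement membrane genes at least 2-fold higher there from 3 to 1. Proteoglycans at least 2-fold lower in CiLC than LC went from 3 to 1 with totals, with upper-quartile scaling and without LC replicate 2. Basement membrane genes at least 2-fold higher in CiLC than MEF went from 1 to 2 without MEF replicate 1. Upper-quartile scaling moved the median of all genes in LC against MEF to -0.11, and scaling by totals moved it to -0.16, and to 0.22 in CiLC against LC. Scaling by totals turned the log2 fold change of Ltbp3 to 0.041, Thbs2 to 0.061 and Sparc to 0.065 in CiLC against MEF, of Ltbp3 to -0.053 and Bgn to -0.057 in LC against MEF, and of Efemp2 to 0.087, Ltbp3 to 0.094, Nid1 to 0.12, Lama5 to 0.036, Lamb1 to 0.014, Fn1 to 0.0090, Matn2 to 0.069 and Mgp to 0.20 in CiLC against LC. Upper-quartile scaling turned Ltbp3 to -0.0054 and Bgn to -0.0091 in LC against MEF and Mgp to 0.071 in CiLC against LC. With single libraries left out, Thbs2 and Sparc in CiLC against MEF, Ltbp1 in LC against MEF and Mgp in CiLC against LC changed sign around 0. Leaving out libraries, the log2 fold change ran from -0.038 to 0.025 for Thbs2, -0.024 to 0.017 for Sparc, -0.038 to 0.014 for Ltbp1 and -0.043 to 0.015 for Mgp. The replicate numbers do not pair libraries by label, and the deviations of same-numbered libraries correlated at 0.088, 0.024 and -0.077. Under the replicate block the counts were 21 higher and 28 lower, 20 and 33, and 26 and 28, and no call of a member changed. Of called members, 4, 2 and 10 lost their call in some setting other than an assumed variation. Calls were also gained. With totals alone these were Fbn1 in CiLC against MEF (edgeR adjusted p = 0.0346), Ltbp1 in LC against MEF (0.00335), and Nid1 (0.0217) and Mgp (0.00771) in CiLC against LC. Upper-quartile scaling also called Ltbp1 in LC against MEF (edgeR adjusted p = 0.0338), and DESeq2 called Bgn there. Without LC replicate 1, log2 fold changes were 0.13 for Bgn and 0.12 for Ltbp3 in LC against MEF. Genes with few reads (Acan, Matn4, Omd and Vtn) are limited by depth. The cause of these changes was not tested.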
